A study of Homo sapiens with 12 samples.

Results

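Aminoacyl-tRNA synthetases are the enzymes that join each amino acid to its own tRNA. Their genes were followed here through the first hours of antibody treatment in diffuse large B-cell lymphoma (DLBCL) cells. The set was drawn by gene name from the 58884 genes of the count table and held 37 genes. These were 19 genes of cytosolic enzymes (names ending in 1, together with FARSA and FARSB, the subunits of the phenylalanine enzyme), 16 genes of mitochondrial enzymes (names ending in 2), and 2 scaffold genes, AIMP1 and AIMP2. AIMP2 ends in 2 but encodes a scaffold of a cytosolic complex, and it was kept with AIMP1.

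The study measured total RNA from the established DLBCL lines U2932 and TMD8, both labelled wild type. Each line was treated for 4 h with 20 µg/mL rituximab (R), ofatumumab (OF) or a human IgG1 isotype antibody as control. R and OF both bind CD20, a surface protein of B cells, and the study asked how the transcriptional effects of these antibodies differ. Every line and treatment had 2 libraries, 12 in all, from cultures of one line that were split and grown apart for a week, so the p-values measure the spread between cultures of one line and not between patients.

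Cytosolic synthetases charge the tRNAs of the ribosomes that translate nuclear messages, and mitochondrial synthetases, also encoded in the nucleus, charge those of the mitochondrial ribosome. In mammals several cytosolic synthetases sit in one multisynthetase complex held together by the AIMP proteins, EPRS1 carries both the glutamate and the proline enzyme in one protein, and GARS1 and KARS1 serve both compartments. Many cytosolic synthetase genes are textbook targets of ATF4, a transcription factor that is translated when eIF2 alpha is phosphorylated and that raises amino acid supply and tRNA charging.

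ATF4 acts through short composite elements, so the 250 bases before the RefSeq start sites (GRCh38.p14) were searched on both strands for TGATGNAA, where N is any base. The element was found in 4 of the 32 members with a promoter in the RefSeq table (12.5%), against 1061 of 27305 genes (3.886%). It was found for 3 of 16 cytosolic genes (18.8%), AARS1, GARS1 and IARS1, and for 1 of 14 mitochondrial genes (7.143%), YARS2. AARS2, LARS1, VARS1, VARS2 and YARS1 had no entry. The 30 bases around each match are shown in the direction of the gene, because they are the stretches that carry the element, with the element on either strand in capitals.
AARS1: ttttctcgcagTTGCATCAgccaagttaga
GARS1: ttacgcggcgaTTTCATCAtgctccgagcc
IARS1: cccgcattttcagcgcgTTGCATCAcctcc
YARS2: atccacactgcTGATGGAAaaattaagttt
These lie on chromosome 16 from 70289675 to 70289704 (minus strand) for AARS1, on chromosome 7 from 30594834 to 30594863 (plus strand) for GARS1, on chromosome 9 from 92293698 to 92293727 (minus strand) for IARS1, and on chromosome 12 from 32756076 to 32756105 (minus strand) for YARS2. The matches sat 187 bases before the start of AARS1, 33 before GARS1, 13 before IARS1 and 197 before YARS2. In GENCODE release 29 the GARS1 and IARS1 stretches lie within annotated exons of those genes, the AARS1 stretch lies within an exon of its neighbour DDX19B, and the YARS2 stretch lies in no exon. A match describes the letters only, and no binding was measured.

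Library totals ran from 15440226 to 27110612 counts. All 6 B-cell markers checked were above 1 CPM (counts scaled to library size) in every library, and all 3 T-cell and all 3 myeloid markers were below it, although 1 of 3 epithelial markers in U2932 and 2 of 3 in TMD8 exceeded it. Among the TMD8 libraries the second OF culture and the second isotype culture were unlike the remaining 4. They had 6.50 to 7.16% of counts in ribosomal protein genes, against 10.0 to 10.8%. Their mitochondrially encoded transcripts held 3.73 to 3.99% against 5.70 to 6.23%. Since these libraries that stood apart fall on both sides of the OF comparison and on one side of the R comparison, TMD8 calls are given below with and without them. SARS2, the mitochondrial serine enzyme, had 0 counts in all 12 libraries. Its gene shares 57.0% of its exon bases with MRPS12, which had 11579 counts in total, and AC011455.2, which also had 0. Reads over shared bases cannot be told apart here, and the strand setting is not known. The remaining exon bases are not shared, and why they too gave 0 counts was not tested. The level of SARS2 is therefore not known. The other 36 members were tested in every comparison, which left 15 mitochondrial genes.

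Levels were compared between genes as CPM per kilobase of transcript, over the 6 libraries of a line. Cytosolic transcripts were the more abundant class, with a median gene level of 86.5 CPM per kb in U2932 and 63.7 in TMD8, while the mitochondrial medians were 13.3 and 16.2. In U2932 the highest level was that of NARS1, the asparagine enzyme (ENSG00000134440, chromosome 18, 57600656 to 57622213, minus strand), with a median of 329 CPM per kb (range 223 to 378). KARS1 (lysine) was next at 132 (125 to 145) and did not overlap NARS1, and TARS1 (threonine) was the lowest cytosolic gene at 22.9 (17.7 to 24.9). In TMD8, KARS1 led with 168 (116 to 185), followed by FARSA at 135 (114 to 156), which overlapped it, and YARS1 (tyrosine) was lowest at 25.3 (22.4 to 28.5). Neighbours in the order overlapped in 16 of 18 cytosolic pairs in each line.

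Among mitochondrial genes TARS2 (threonine; ENSG00000143374, chromosome 1, 150487364 to 150507609, plus strand) stood at the top of U2932 with 126 CPM per kb (114 to 157), clear of IARS2 (isoleucine) at 44.0 (42.0 to 50.5). In TMD8 IARS2 was first with 56.0 (47.3 to 61.7) and TARS2 was the third with 29.03 (25.3 to 39.8). PARS2, the proline enzyme, was the lowest gene with counts in both lines, at 3.83 CPM per kb in U2932 and 3.73 in TMD8. Neighbours overlapped in 9 of 14 mitochondrial pairs in U2932 and in 12 of 14 in TMD8. The scaffold gene AIMP2 lay at 52.0 and 60.4 CPM per kb and AIMP1 at 28.8 and 31.3 in U2932 and TMD8.

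**Figure D1:**
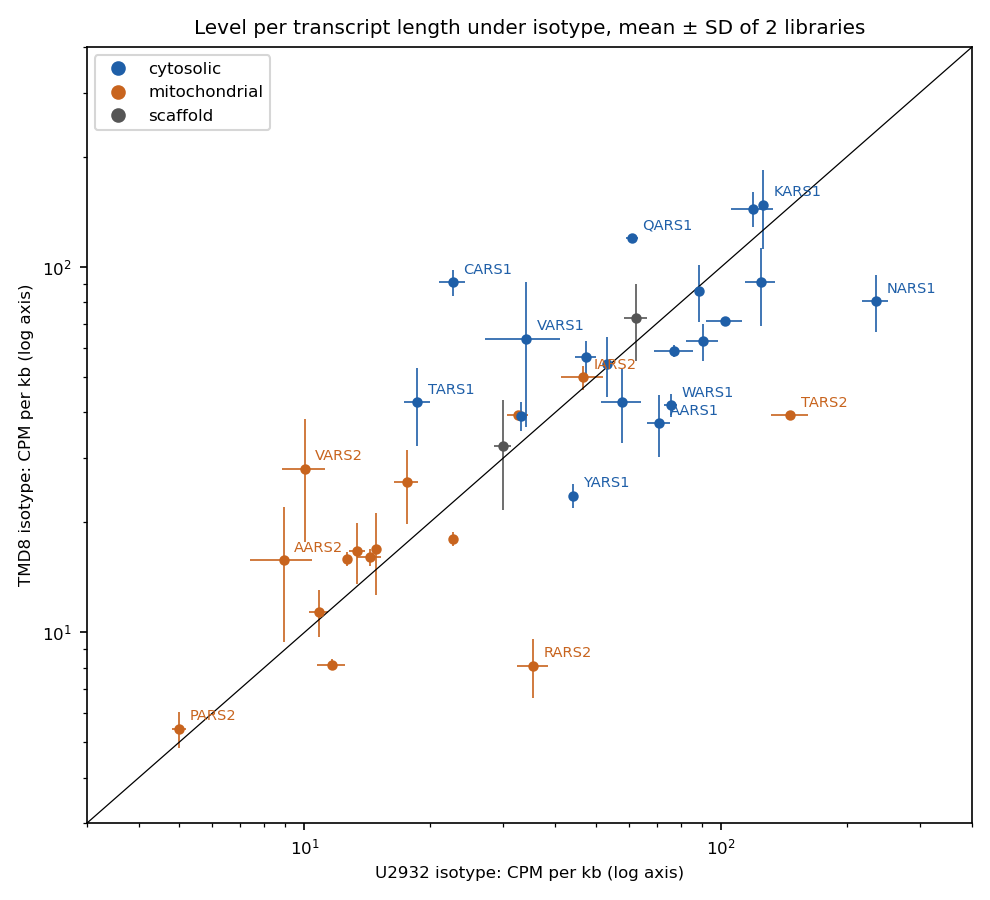
Mean level under the isotype antibody of each member with counts, in CPM per kilobase of transcript, U2932 on the horizontal and TMD8 on the vertical log axis, by class. NARS1 and TARS2 lie furthest toward U2932 among abundant genes, at 235 and 147 in U2932 against 80.7 and 39.3 in TMD8.

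The first comparison was between the lines under the isotype antibody, 2 libraries each, in a fit of all 12 libraries. The lines differed in most synthetases. Of 19 cytosolic genes 7 were higher and 9 lower in TMD8, and of 15 mitochondrial genes 6 were higher and 4 lower. Over all 16187 genes tested, 66.8% were called, 33.7% higher and 33.2% lower, and the median log2 difference was 0.02 against -0.04 for cytosolic and 0.17 for mitochondrial genes. Without U2932 isotype replicate 2 the called genes were 9 cytosolic in place of 16 and 6 mitochondrial in place of 10. The share of all genes called when a library was left out is not given, here or below. Such member counts therefore cannot be compared with all genes. A gene was called where its adjusted p (edgeR quasi-likelihood test, Benjamini-Hochberg over all genes tested) was below 0.10.

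CARS1, the cysteine enzyme (ENSG00000110619, chromosome 11, 3000922 to 3057613, minus strand), had 59.4 and 65.7 CPM in the U2932 isotype libraries and 265 and 236 in those of TMD8. Its log2 difference was 2.00 (SE 0.13, adjusted p = 1.9e-07). TARS1 (1.19), QARS1 (glutamine, 0.98) and VARS1 (valine, 0.90) were also higher in TMD8, with VARS1 at 0.39 without the libraries that stood apart. NARS1 went the other way, with 691 and 765 CPM in U2932 and 281 and 219 in TMD8, a log2 difference of -1.54 (SE 0.17, adjusted p = 1.52e-05). AARS1 (alanine, -0.92), YARS1 (-0.89) and WARS1 (tryptophan, -0.85) were lower as well.

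The share of mitochondrial genes called, 10 of 15, was close to that of all genes. TARS2 had 429 and 371 CPM in U2932 against 106 and 109 in TMD8, a log2 difference of -1.90 (SE 0.12, adjusted p = 1.35e-07) or 3.73-fold. RARS2 (arginine) had 60.3 and 68.1 CPM against 16.6 and 12.8, 4.38-fold lower in TMD8 at -2.13. VARS2 (valine) was 2.81-fold higher in TMD8 at 1.49, with 44.1 and 37.3 CPM against 84.4 and 144. The gap between the TMD8 values of VARS2 separates the library that stood apart from the other one, and without both such libraries the log2 difference was 1.05. The threonine enzymes thus differed in opposite directions, TARS1 higher and TARS2 lower in TMD8. Neither AIMP1 (0.11, adjusted p = 0.651) nor AIMP2 (0.21, adjusted p = 0.322) was called. Without the libraries that stood apart, a fit that called 70.1% of genes, both were called higher in TMD8, AIMP1 at 0.42 (adjusted p = 0.00242) and AIMP2 at 0.44 (adjusted p = 0.00117).

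In U2932, R was compared with the isotype antibody in a fit of the line's 6 libraries. Of the 19 cytosolic genes 9 rose, 3 fell and 7 were not called, and of the 15 mitochondrial genes 1 rose, 3 fell and 11 were not called. Of 14635 genes tested 34.2% were called, 16.8% higher and 17.4% lower, so that the response of this line was broad and the share of mitochondrial genes called was not above that of all genes. The median log2 change was 0.16 over cytosolic, -0.11 over mitochondrial and -0.02 over all genes, and 14 cytosolic but 4 mitochondrial genes had a positive value. These are bulk libraries, in which a change in some of the cells and a smaller change in all of them cannot be told apart.

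NARS1 had 691 and 765 CPM under isotype and 1014 and 1172 under R. Both R libraries lay above both isotype libraries, and the log2 change was 0.58 (SE 0.08, adjusted p = 6.72e-06). YARS1 (ENSG00000134684, chromosome 1, 32775237 to 32818153, minus strand) had 143 and 142 CPM under isotype and 214 and 217 under R, a log2 change of 0.59 (SE 0.08, adjusted p = 8.05e-06). Its change stayed between 0.59 and 0.60 whichever library of the line was left out. AARS1 (ENSG00000090861, chromosome 16, 70252295 to 70289543, minus strand) rose from 258 and 236 CPM to 353 and 316, at 0.44 (SE 0.09, adjusted p = 0.000415).

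The other cytosolic genes that rose under R were CARS1 (0.47), the glycine enzyme GARS1 (0.44), TARS1 (0.36), QARS1 (0.28), the methionine enzyme MARS1 (0.28) and WARS1 (0.23). CARS1 had 59.4 and 65.7 CPM under isotype and 90.8 and 82.3 under R. GARS1 had 188 and 219 against 275 and 278. For both genes the groups did not overlap. WARS1 was called with adjusted p = 0.0435, and this call was lost when either R library or either OF library was left out. The calls of QARS1 and MARS1 were lost without R replicate 1, and without that library 7 cytosolic genes were called in place of 12 and 2 mitochondrial in place of 4. The share of all genes called without that library is not given.

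The cytosolic genes that fell under R did so by small amounts. RARS1 (arginine) had 252 and 283 CPM under isotype and 219.7 and 246 under R, a log2 change of -0.20 (SE 0.09, adjusted p = 0.093). FARSB had 179.6 and 210.2 against 155 and 180.3, at -0.22 (adjusted p = 0.091), and for RARS1 and FARSB the call was lost without isotype replicate 2, R replicate 1 or either OF library. FARSA, the partner subunit of FARSB, was not called (-0.13, adjusted p = 0.299). With a correction of each library for GC content FARSA was called lower (-0.20, adjusted p = 0.0175), and RARS1 (adjusted p = 0.134) and FARSB (adjusted p = 0.112) were not called. VARS1 had 168 and 126 CPM under isotype and 131 and 115 under R, so its groups overlapped, and its change of -0.26 (SE 0.11, adjusted p = 0.0831) was not called without isotype replicate 1, R replicate 2 or OF replicate 1. None of these 3 genes was called by DESeq2, with adjusted p = 0.127 for RARS1, 0.139 for FARSB and 0.134 for VARS1.

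In the mitochondrial class WARS2, the tryptophan enzyme (ENSG00000116874, chromosome 1, 119031216 to 119140671, minus strand), had 29.4 and 31.6 CPM under isotype and 21.2 and 22.9 under R. It fell by 0.47 on the log2 scale (SE 0.11, adjusted p = 0.00203). An antisense gene, WARS2-AS1, shares 4.68% of the exon bases of WARS2. TARS2, the most abundant mitochondrial synthetase of this line, fell from 429 and 371 CPM to 323 and 312, at -0.33 (SE 0.09, adjusted p = 0.00499). PARS2 (ENSG00000162396, chromosome 1, 54756898 to 54764514, minus strand) had 12.04 and 11.4 CPM under isotype and 8.48 and 8.95 under R, at -0.43 (SE 0.14, adjusted p = 0.0238). For WARS2, TARS2 and PARS2 the groups did not overlap, and the call of PARS2 was lost without R replicate 1. The mitochondrial gene that rose was AARS2 (alanine; ENSG00000124608, chromosome 6, 44299654 to 44313326, minus strand), with 38.5 and 30.2 CPM against 45.6 and 38.2, at 0.29 (SE 0.12, adjusted p = 0.0713). Its groups overlapped, and the call was lost without isotype replicate 2 or R replicate 1.

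Of the scaffold genes, AIMP2 had 73.2 and 80.1 CPM under isotype and 61.3 and 66.1 under R, and fell by 0.27 (SE 0.10, adjusted p = 0.0382), a call lost without isotype replicate 2, R replicate 1 or OF replicate 1. AIMP2 shares 28.9% of its exon length with EIF2AK1, the heme-regulated eIF2 alpha kinase. AIMP1 had 74.9 and 79.9 CPM against 73.8 and 84.0 and was not called (0.03, adjusted p = 0.865).

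OF was compared with the same 2 isotype libraries in U2932, so its values are not independent of those of R and are given beside them. Of the 19 cytosolic genes 9 rose, 2 fell and 8 were not called, and of the 15 mitochondrial genes 1 rose, 4 fell and 10 were not called. Over all genes 36.4% were called, 18.7% higher and 17.8% lower. The median log2 change was 0.09 for cytosolic, -0.10 for mitochondrial and 0.01 for all genes.

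YARS1 had 212 and 213 CPM under OF against 143 and 142 under isotype, at 0.58 (SE 0.08, adjusted p = 1.2e-05). NARS1 had 1027 and 1029 against 691 and 765, at 0.50 (SE 0.08, adjusted p = 4.74e-05). AARS1 had 338 and 351 against 258 and 236, at 0.48 (SE 0.09, adjusted p = 0.000146). All 3 genes were above both isotype libraries in both OF libraries. CARS1 (0.42), GARS1 (0.33), TARS1 (0.30), MARS1 (0.25), QARS1 (0.22) and WARS1 (0.20) also rose, and RARS1 (-0.32) and FARSB (-0.27) fell. With OF replicate 1 left out 4 cytosolic genes were called in place of 11, and with OF replicate 2 left out 6 were. The mitochondrial calls were then 3 and 2 in place of 5, and the shares of all genes called in those fits are not given. Either omission ended the calls of MARS1, TARS1, QARS1, WARS1 and FARSB.

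The mitochondrial genes under OF were again led by WARS2, with 21.8 and 22.2 CPM against 29.4 and 31.6 and a log2 change of -0.46 (SE 0.11, adjusted p = 0.00213). AARS2 rose from 38.5 and 30.2 CPM to 46.7 and 47.7, at 0.46 (SE 0.12, adjusted p = 0.00376), here without overlap. PARS2 had 9.05 and 8.44 CPM against 12.04 and 11.4, at -0.42 (SE 0.14, adjusted p = 0.0265), and lost its call without OF replicate 2. NARS2, the mitochondrial asparagine enzyme, fell by 0.28 (adjusted p = 0.0316) and TARS2 by 0.21 (adjusted p = 0.0686), and both calls were lost when either OF library was left out. AIMP2, with 57.4 and 60.9 CPM against 73.2 and 80.1, fell by 0.37 (SE 0.10, adjusted p = 0.00474), a call lost without OF replicate 1, whereas AIMP1, at 72.7 and 73.5 against 74.9 and 79.9, was not called (-0.08, adjusted p = 0.584).

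The changes in U2932 were small and the count of calls depended on the fit. At 1.5-fold or more 1 member passed under R, YARS1, and 0 under OF. Over all genes 5.19% were called higher and 5.02% lower at that limit under R, and 5.9% and 5.21% under OF. In one fit of all 12 libraries, in which TMD8 contributes to the estimate of spread, the changes were close to those above but the calls under R were YARS1 (adjusted p = 0.0155), CARS1 (adjusted p = 0.0687) and NARS1 (adjusted p = 0.0861). Under OF they were YARS1 (adjusted p = 0.0163), CARS1 (adjusted p = 0.0916), AARS1 (adjusted p = 0.0932) and WARS2 (adjusted p = 0.0931).

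**Figure D2:**
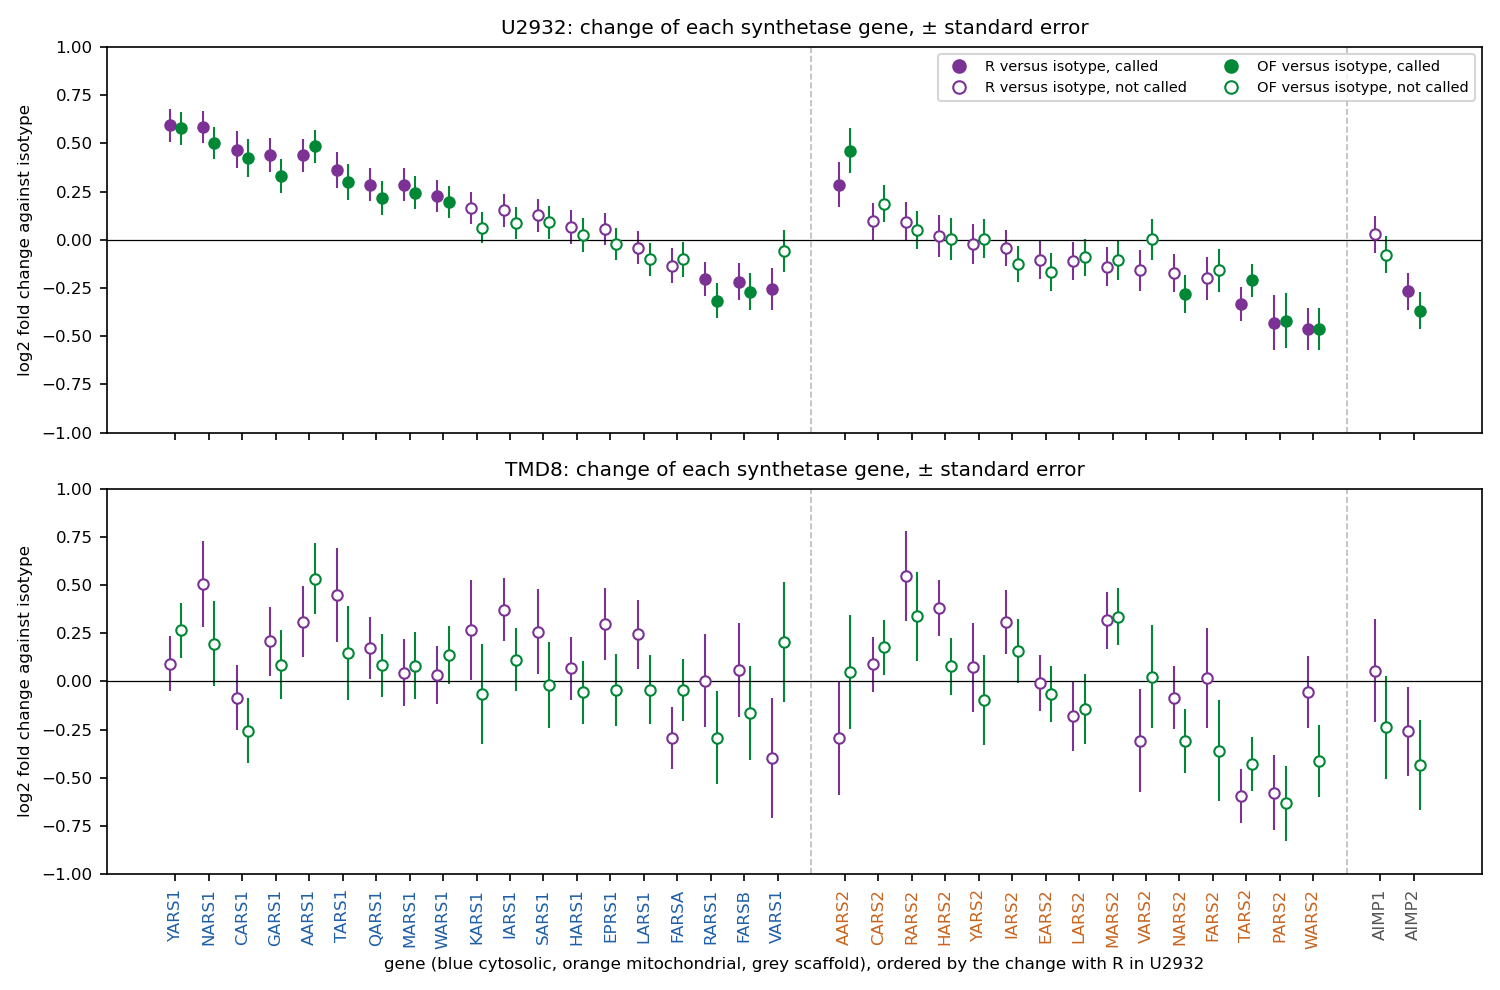
Log2 change against isotype of every tested member (horizontal axis, by class, in the order of the change under R in U2932) under R and OF in U2932 and TMD8, with bars of 1 standard error; filled points were called at adjusted p below 0.10. In U2932 the filled points run from -0.47 to 0.59, with 9 cytosolic genes above 0 under each antibody, and in TMD8 no point is filled.

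**Figure D3:**
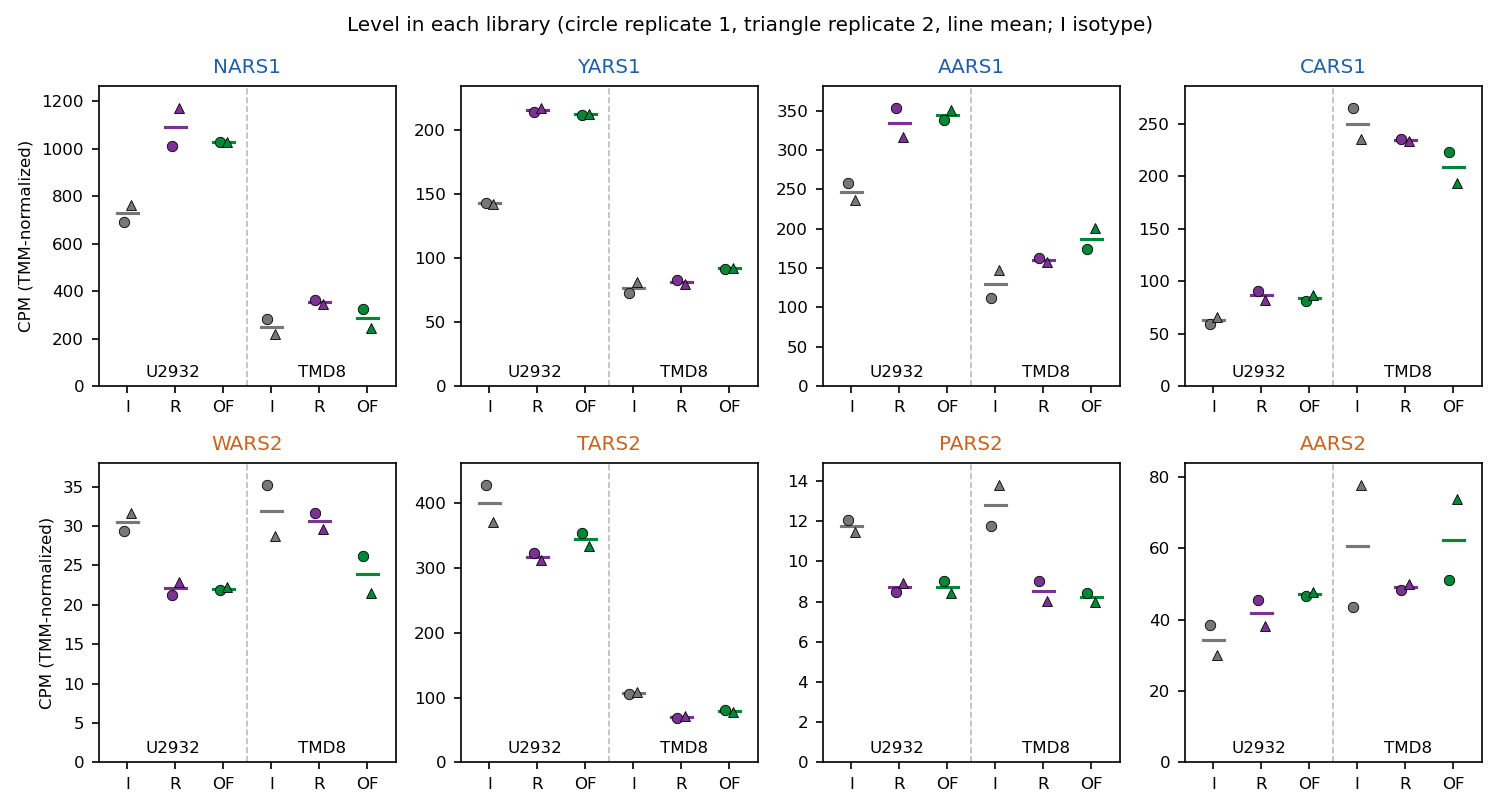
CPM of NARS1, YARS1, AARS1, CARS1, WARS2, TARS2, PARS2 and AARS2 in each of the 12 libraries, one point per library, by line and treatment. In U2932 the isotype points of NARS1, at 691 and 765, lie below its 4 antibody points, which start at 1014.

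Genes whose libraries did not overlap between groups were also counted, without a model. Under R in U2932, 13 of 19 cytosolic genes lay above isotype in both libraries and 2 lay below, while 28.9% of all genes lay above and 30.9% below. Of 15 mitochondrial genes 1 lay above and 7 below. Under OF 11 cytosolic genes lay above and 3 below, with 32.6% of all genes above and 31.8% below. Of the mitochondrial genes 2 lay above and 8 below.

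Summed over the genes, cytosolic synthetases held 4622 ± 179 CPM (SD, n = 2) under isotype in U2932, 5393 ± 149 under R and 5186 ± 76.0 under OF. Mitochondrial synthetases held 1114 ± 25.2, 1006 ± 5.70 and 1030.2 ± 17.0 CPM. Single abundant genes weighed heavily in these sums. NARS1 alone held a mean of 728 CPM under isotype, 1093 under R and 1028 under OF. TARS2 alone held 400, 318 and 345. The sums and their ratio therefore do not describe an even shift of each class. The ratio of cytosolic to mitochondrial levels per kilobase was therefore 3.54 and 3.82 in the isotype libraries, 4.65 and 4.81 under R and 4.34 and 4.52 under OF, with no overlap between antibody and isotype. In TMD8 the ratio was 4.52 and 4.10 under isotype, 4.83 and 4.68 under R and 4.69 and 4.25 under OF. The R libraries lay above the isotype libraries and those of OF overlapped them, but within each replicate number OF was above isotype. The second value of OF and of isotype is that of the library that stood apart. With 2 libraries against 2 an exact permutation test cannot go below p = 0.333, so these ratios carry no test. Ribosomal protein genes, another part of the translation machinery, held 4.44 to 4.74% of the U2932 isotype counts and 6.03 to 6.56% under the antibodies, and whether this shift bears on the synthetase values was not tested.

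**Figure D4:**
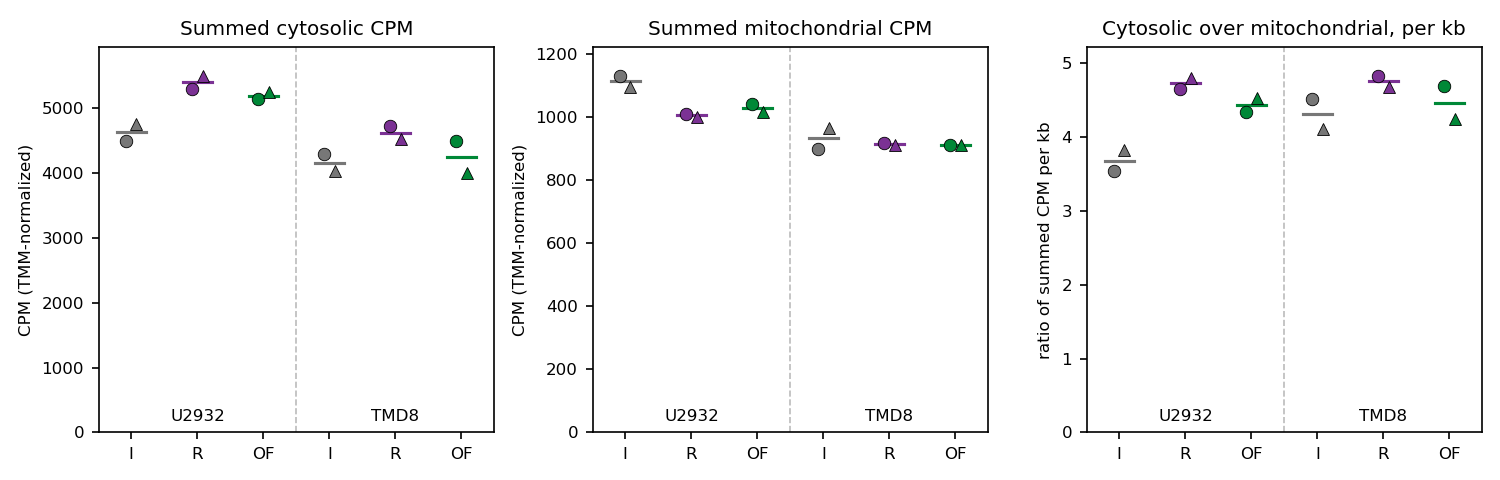
Summed CPM of cytosolic and of mitochondrial synthetases and the ratio of their levels per kilobase, one point per library. In U2932 the ratio is 3.54 and 3.82 under isotype and at least 4.34 under either antibody.

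Cytosolic and mitochondrial enzymes for the same amino acid were compared pair by pair. In 16 pairs with both genes tested, of which FARSA and FARSB share FARS2 and EPRS1 is set against both EARS2 and PARS2, the log2 change of the cytosolic gene exceeded that of its mitochondrial partner in 13 pairs under R and in 12 under OF in U2932. In the comparison of R with isotype the gap was 0.76 for asparagine (NARS1 and NARS2), 0.70 for threonine, 0.69 for tryptophan and 0.62 for tyrosine. Arginine ran the other way at -0.30, since RARS1 fell while RARS2 was not called (0.09, adjusted p = 0.529). In TMD8 the counts were 10 of 16 under R and 11 of 16 under OF. With the GC correction they were 14 and 14 in U2932 and 9 and 11 in TMD8. For R against OF in U2932, where no member was called, the count was also 13 of 16, and 9 with that correction.

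Genes of the multisynthetase complex and the other cytosolic genes were counted apart. Of all genes 16.8% were called higher and 17.4% lower under R, and 18.7% and 17.8% under OF, without the GC correction. Of the 7 complex enzymes 2 rose and 1 fell under each antibody in U2932, with medians of 0.15 under R and 0.06 under OF. Of the 12 other cytosolic genes 7 rose and 2 fell under R (median 0.29), and 7 rose and 1 fell under OF (median 0.25). Large complex members such as IARS1, with 443 and 509 CPM under isotype and 518 and 540.3 under R (0.15, adjusted p = 0.191), and EPRS1 (0.06, adjusted p = 0.676) were not called. With the GC correction 4 complex enzymes rose and 0 fell under R, among them IARS1 (0.19, adjusted p = 0.019) and KARS1 (0.17, adjusted p = 0.0397), and under OF 2 rose, IARS1 (0.16, adjusted p = 0.048) and MARS1, and 1 fell. Of the 13 cytosolic genes listed as ATF4 targets 8 rose and 1 fell under R (median 0.28), and 8 rose and 0 fell under OF (median 0.25). Of the 6 not listed 1 rose and 2 fell under each, with medians of -0.03 and -0.04. The lists were chosen with earlier results of these data known, so this split is a description and no independent test. The element shown above is in the promoters of AARS1 and GARS1, which rose. It is also in those of IARS1, called only with the GC correction, and of YARS2, not called with or without that correction. NARS1, with the smallest p under R, had no match in the window. CARS1, TARS1, QARS1, MARS1 and WARS1, which also rose, had no match either. YARS1, with the largest rise under R, had no entry to search.

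Transcripts of the wider pathway were read from lists that held no synthetase. These lists too were chosen with earlier results of these data known. Of all genes 34.2% were called under R and 36.4% under OF. Of 20 tested genes of the list of ATF4 and its targets, 13 rose and 1 fell under R (median 0.49), and 15 rose and 1 fell under OF (median 0.61). CHAC1, which degrades glutathione, rose by 2.21 under R and 2.39 under OF, DDIT4, an inhibitor of mTORC1, by 1.55 and 1.72, SLC7A11, the cystine importer, by 1.26 and 1.18, and PSAT1, of serine synthesis, by 1.19 and 1.02. The gene that fell was ATF4 itself, at -0.36 (adjusted p = 0.00119) and -0.40 (adjusted p = 0.000498). ASNS, asparagine synthetase and a classical target, was not called (0.62, adjusted p = 0.14; 0.21, adjusted p = 0.67). Of the 8 genes for eIF2 alpha kinases, phosphatase subunits and their regulators, 1 rose and 3 fell under R, with EIF2AK2 (PKR) at 0.29 and PPP1R15A (GADD34) at -0.81, and 3 rose and 3 fell under OF.

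Genes that work beside the synthetases were also read. QRSL1, a subunit of the mitochondrial glutamyl-tRNA amidotransferase that was chosen after its values were seen, fell by 0.42 under R (adjusted p = 0.00444) and by 0.49 under OF (adjusted p = 0.00126). Of 4 tested cytosolic elongation factor genes 3 rose under R, with EEF1A1, which carries charged tRNA to the ribosome, at 1.04, and 2 rose under OF (4 with the replicate block, which called 39.5% of genes). Of 4 mitochondrial elongation genes 1 rose under each, TUFM, at 0.24 and 0.27.

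In TMD8 no member was called under R or OF, in a line where 0.647% of 14227 genes were called under R and 0.815% under OF by edgeR. At an unadjusted p below 0.05 there were 0 cytosolic and 3 mitochondrial members under R, among 2265 of all genes, and 1 and 2 under OF, among 2009. DESeq2 called 1 member, TARS2 under R, where it called 721 genes, and 0 under OF, where it called 594. The median log2 change was 0.17 over cytosolic and -0.01 over mitochondrial genes under R, with 16 of 19 cytosolic values positive, and 0.08 and -0.07 under OF, with 10 positive. The replicate numbers were taken to mark the cultures that were split and kept apart. The labels do not say that a number is the same culture in every treatment. A fit with the replicate number as a block is given beside these values. It called 17.7% of genes under R (8.99% higher, 8.73% lower) and 14.3% under OF (7.45% higher, 6.87% lower). Without both libraries that stood apart, a choice made after seeing the data, 30.3% and 23.4% of 14391 genes were called, with the lone OF and isotype libraries taken to vary like those of R.

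TARS2 gave the smallest p of any member under R in TMD8. It had 106 and 109 CPM under isotype, 69.1 and 72.1 under R and 80.7 and 77.8 under OF, and neither antibody group overlapped the isotype group. The log2 difference was -0.59 under R (SE 0.14, adjusted p = 0.142, and 0.0217 in the blocked fit) and -0.43 under OF (SE 0.14, adjusted p = 0.249, blocked 0.0658). Without the libraries that stood apart it was -0.59 (adjusted p = 3.12e-05) and -0.40 (adjusted p = 0.0359). The value was negative in each of these fits, as it was in U2932.

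PARS2 had 11.8 and 13.8 CPM under isotype, 9.04 and 8.02 under R and 8.45 and 7.995 under OF. Its differences were -0.58 (SE 0.19, adjusted p = 0.231, blocked 0.0754) and -0.63 (SE 0.19, adjusted p = 0.223, blocked 0.0658). Without the libraries that stood apart PARS2 was called under R (-0.47, adjusted p = 0.0646) but not under OF (-0.49, adjusted p = 0.144). HARS2, the histidine enzyme, had 19.99 and 20.99 CPM under isotype, 26.3 and 26.8 under R and 21.01 and 22.1 under OF. Its difference under R was 0.38 (SE 0.15, adjusted p = 0.278, blocked 0.103, and 0.40 with adjusted p = 0.0451 without those libraries), and HARS2 shares 15.8% of its exon length with HARS1 and ZMAT2. MARS2, the methionine enzyme, had 46.7 and 50.3 CPM under isotype and 62.8 and 59.2 under OF, at 0.34 (SE 0.15, adjusted p = 0.371). Its R libraries, at 62.7 and 57.4, were also above isotype, and without the libraries that stood apart MARS2 was called higher under R (0.35, adjusted p = 0.0394) and OF (0.42, adjusted p = 0.0414). The blocked fit further called RARS2 higher under R (0.56, adjusted p = 0.0495) and WARS2 lower under OF (-0.41, adjusted p = 0.0982). Without those libraries RARS2 was not called (0.35, adjusted p = 0.103) and WARS2 was (-0.44, adjusted p = 0.0558).

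Among the cytosolic genes of TMD8, NARS1 had 281 and 219 CPM under isotype, 361 and 345 under R and 326 and 244 under OF. The lower value under isotype and under OF is that of the library that stood apart. The difference under R was 0.50 (SE 0.22, adjusted p = 0.329, blocked 0.52 with adjusted p = 0.0568), and without those libraries it was 0.32 (adjusted p = 0.0338). IARS1 had 337 and 327 CPM under isotype and 447 and 407 under R, at 0.37 (SE 0.16, adjusted p = 0.332), and without those libraries 0.33 (adjusted p = 0.0244). FARSA had 274 and 320.1 CPM against 234 and 246, at -0.30 (SE 0.16, adjusted p = 0.419). In the blocked fit TARS1 was also called higher under R (0.47, adjusted p = 0.0698), but not without those libraries (0.21, adjusted p = 0.217), and FARSA was not called there either (-0.20, adjusted p = 0.225).

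Under OF the cytosolic gene of smallest p was AARS1, with 112 and 148 CPM under isotype and 174 and 201 under OF, at 0.53 (SE 0.18, adjusted p = 0.27, blocked 0.54 with adjusted p = 0.0551). Its R libraries had 162 and 158 CPM. Without the libraries that stood apart AARS1 was called higher under R (0.50, adjusted p = 0.000666) and OF (0.62, adjusted p = 0.000262). YARS1, which rose in U2932, had 72.5 and 80.8 CPM under isotype, 82.8 and 79.6 under R and 91.1 and 92.2 under OF, and its difference under OF was 0.26 (SE 0.14, adjusted p = 0.468). CARS1 had 265 and 236 CPM under isotype, 236 and 234 under R and 224 and 194 under OF, at -0.26 under OF (SE 0.17, adjusted p = 0.556). Neither YARS1 (0.32, adjusted p = 0.119) nor CARS1 (-0.26, adjusted p = 0.204) was called under OF without those libraries, while VARS1 was called higher (0.42, adjusted p = 0.0184) and RARS1 lower (-0.33, adjusted p = 0.0841).

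The scaffold genes were not called in TMD8. AIMP2 had 104 and 73.9 CPM under isotype, 74.0 and 73.6 under R and 75.4 and 55.5 under OF, at -0.26 (adjusted p = 0.628) and -0.43 (adjusted p = 0.459). Isotype was highest within each replicate number, and without the libraries that stood apart AIMP2 was called lower under R (-0.50, adjusted p = 0.000592) and OF (-0.47, adjusted p = 0.0113). AIMP1 had 104 and 64.2, 92.3 and 81.3, and 80.5 and 61.1 CPM, with differences of 0.06 and -0.24 (adjusted p = 0.937 and 0.757), and was called lower under OF without those libraries (-0.37, adjusted p = 0.0545). Among ATF4 and its targets 0 of 19 were called under R and 1 under OF, DDIT4 at 1.21 (adjusted p = 0.091). The blocked fit called 3 higher and 2 lower under R, the latter ATF5 and ATF4, and 7 higher and 4 lower under OF.

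Whether the response differed between the lines was tested as an interaction in the fit of all 12 libraries. No member was called, where 0.321% of 16187 genes were called for R and 0.105% for OF. At an unadjusted p below 0.05 there were 2 cytosolic and 1 mitochondrial member for R, among 1924 of all genes, and 1 and 1 for OF, among 1369. DESeq2 called CARS1 and YARS1 for R, among 546 genes called, and CARS1 for OF, among 256. With the replicate block, which called 6.04% of genes for R (2.77% lower in TMD8) and 2.23% for OF (1.09% lower), CARS1 and YARS1 were called for R and CARS1 for OF. Without TMD8 isotype replicate 1, YARS1 and AARS2 were called for R, in a fit whose share of all genes called is not given.

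For YARS1 the change under R was 0.59 in U2932 and 0.09 in TMD8, a difference of -0.51 (SE 0.15, adjusted p = 0.237, blocked 0.0794). For CARS1 it was 0.47 and -0.09, a difference of -0.56 (SE 0.18, adjusted p = 0.263, blocked 0.0761). Under OF CARS1 changed by 0.42 in U2932 and gave -0.26 in TMD8, a difference of -0.68 (SE 0.18, adjusted p = 0.261, blocked 0.0577). CARS1 is also the gene with the log2 difference of 2.00 between the lines under isotype. MARS2 had the smallest p among mitochondrial genes, with differences of 0.45 for R (SE 0.16, adjusted p = 0.315) and 0.44 for OF (SE 0.16, adjusted p = 0.466). Without the libraries that stood apart, where 16% of genes were called for R and 5.28% for OF, the calls were CARS1 (-0.64), YARS1 (-0.43) and MARS2 (0.50) for R, and CARS1 (-0.67) and MARS2 (0.53) for OF. For TARS2, whose values under R were negative in both lines, no difference in response was called.

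R and OF were also compared directly. By edgeR 0.00683% of 14635 genes were called in U2932 and 0% of 14227 in TMD8, and no member was among them. At an unadjusted p below 0.05 there were 747 and 582 genes but 0 members, and DESeq2 called 0 genes in either line. In TMD8 the replicate block gave 3 cytosolic and 2 mitochondrial members among 2492 genes at that p, with no gene called. Without the libraries that stood apart 4% of 14391 genes were called but no member, and one fit of all 12 libraries with the block called 2 cytosolic and 1 mitochondrial member. The share of all genes called by that last fit is not given here, so its member counts cannot be compared with all genes. In the fits that gave the 747 and 582 genes, which had no block and no GC correction, all 36 members had a 95% interval of the difference that held 0. In U2932 the bounds of these intervals lay between -0.42 and 0.32 on the log2 scale, and in TMD8 between -1.34 and 1.00, so that differences of up to those sizes are left possible.

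VARS1 had the smallest p of the cytosolic genes in both lines. Its values in U2932 were 131 and 115 CPM under R and 139.8 and 141 under OF, a difference of -0.20 (95% interval -0.42 to 0.03, adjusted p = 0.91). In TMD8 they were 197 and 217 under R and 259 and 370.4 under OF, a difference of -0.60 (-1.34 to 0.14, adjusted p = 0.733), and VARS1 had 192 and 358 CPM under isotype, so the libraries that stood apart were the high ones in both groups. AARS2 was the mitochondrial gene of smallest p in U2932, with 45.6 and 38.2 CPM under R and 46.7 and 47.7 under OF (-0.18, interval -0.42 to 0.06). In TMD8 it was HARS2, at 0.30 (interval -0.05 to 0.65).

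Across the 36 members the difference between R and OF followed the GC content of the transcript. Pearson's r was -0.73 in U2932 and -0.79 in TMD8 (Spearman's rho -0.68 and -0.73), so GC-rich members such as VARS1, at 62.6% GC, sat lower under R than under OF. This is a description across genes of the same libraries, which are not independent replicates. In TMD8 r was -0.66 without the libraries that stood apart. For R against isotype in TMD8 r was -0.56, and for the difference in response to R it was -0.63. Without those libraries these were -0.05 and -0.08. In U2932 r was 0.02 for R and 0.25 for OF against isotype. It was 0.10 for OF against isotype in TMD8 and -0.20 for the difference in response to OF. After a correction of each library for GC content r for R against OF was -0.21 in both lines. The correction removes a trend on GC content fitted over all genes, so a smaller r follows from its design. The correlation over all genes is not given, so the trend is not shown to be particular to the members. That correction called 40.9% of genes under R in U2932 (20.8% higher, 20.1% lower) and 40.1% under OF (20.2% higher, 19.8% lower). The class counts were then 11 cytosolic genes higher and 2 lower under R and 9 and 4 under OF, and 2 mitochondrial genes higher and 5 lower under R and 2 and 6 under OF. The cytosolic genes had a median GC content of 48.6%, the mitochondrial ones 51.2% and all genes tested in U2932 48.1%.

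**Figure D5:**
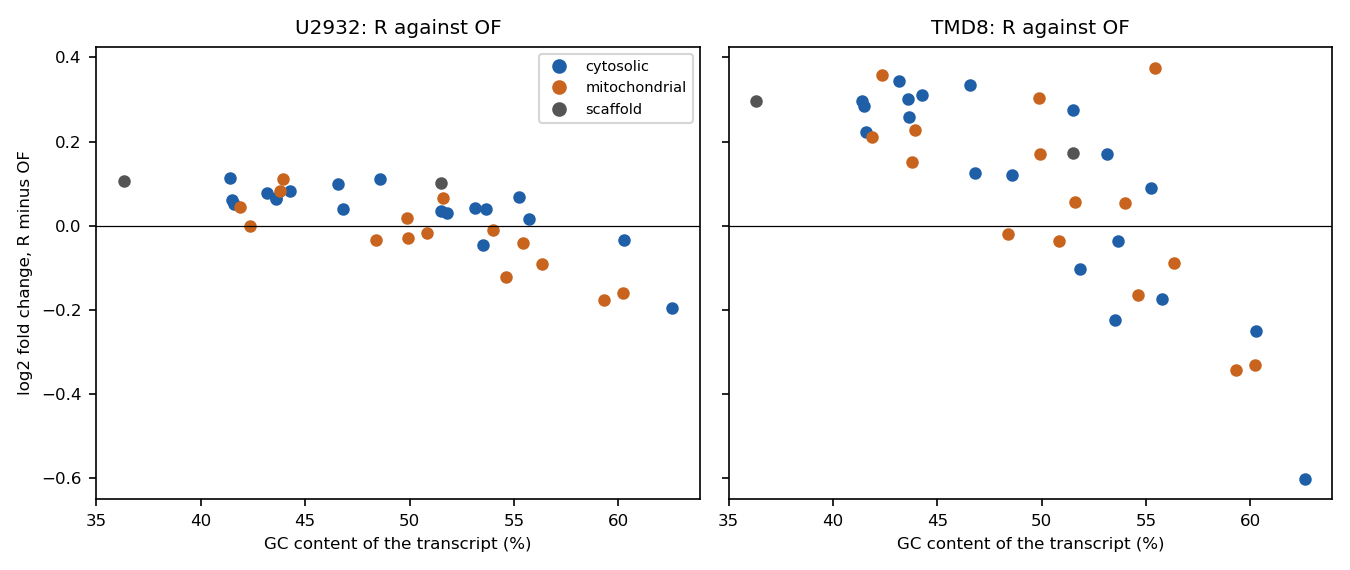
Difference between the R and OF changes of each tested member, on the log2 scale, against the GC content of its transcripts in percent, one panel per line. The points fall from left to right in both panels, with Pearson's r of -0.73 in U2932 and -0.79 in TMD8.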

How the data were processed

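Libraries were made by the authors from total RNA with the NEBNext Ultra II RNA kit. Per the submitters' processing notes and the paper's methods, reads were trimmed with Trim Galore 0.6.0, aligned to GRCh38 with STAR 2.7.0e, counted by STAR per annotated gene and analysed with DESeq2 1.26.0. The strand setting and annotation release are not given in the sources used here. The values are the deposited raw counts of 58884 genes, of which 27447 had no count, in 12 columns, all used. The members and the gene lists were chosen with earlier results of these data known.

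Counts were tested with edgeR 4.0.16 (R 4.3.3; TMM normalization, filterByExpr with a minimum count of 10, quasi-likelihood test) over all genes, adjusted by Benjamini-Hochberg and called below 0.10. Comparisons within a line used its 6 libraries, and comparisons between lines all 12. Intervals are 95% Student intervals with the degrees of freedom of the fit. CPM use TMM library sizes. Lengths, GC content and gene positions came from GENCODE release 29. The script was tested on simulated counts. Genes printed library by library were the 3 cytosolic and 3 mitochondrial genes of smallest p in each antibody comparison with isotype, 1 of each class in the other comparisons, the scaffold genes, and the highest and lowest levels; other genes printed by library were chosen after their values were seen. All intervals cover only the spread between these libraries.

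Replicates 1 and 2 were taken as the cultures of each line kept apart for a week, which the labels do not state for each treatment. The correlation of replicate deviations between treatments was -0.05 to 0.10 in U2932 and 0.22 to 0.69 in TMD8. The blocked fit is printed where it changed a call. Chi-square over degrees of freedom between replicates was at least 2.42, so no library was a copy of another. Alternatives were DESeq2 1.42.0, upper-quartile and library-size scaling, other filters, the replicate block, a GC correction (lowess span 0.3), leaving out each library, all 12 libraries in one fit, and stricter limits. Leaving out both TMD8 libraries that stood apart, and the block in the fit of all 12, were added after seeing the data.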

Additional observations from a re-analysis of the deposited data

Results flagged for a closer look

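The responses of CARS1 and YARS1 differed between the lines in the fit with the replicate block. CARS1, which charges cysteine tRNA, responded to R less in TMD8 than in U2932 by -0.56 on the log2 scale (adjusted p = 0.0761, edgeR quasi-likelihood) and to OF by -0.68 (adjusted p = 0.0577). YARS1 responded to R less by -0.51 (adjusted p = 0.0794). Without the block the adjusted p-values were 0.263, 0.261 and 0.237. With the block and a GC correction the CARS1 difference under OF was still called (adjusted p = 0.0604), whereas those of CARS1 and YARS1 under R were not (adjusted p = 0.149 and 0.189). DESeq2 without the block called all 3 (adjusted p = 0.0728 for CARS1 and 0.0131 for YARS1 under R, and 0.027 for CARS1 under OF). It called 546 of 16187 genes for R and 256 for OF. Both antibody contrasts share the isotype libraries, so the values for CARS1 are not independent of each other.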

How the results depend on the processing

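The counts of called synthetases moved with the libraries that entered the fit and with the limits in U2932, and with the replicate block in TMD8. In U2932 under R, where 12 cytosolic and 4 mitochondrial genes were called, one fit of all 12 libraries called 3 and 0, that fit with the replicate block 7 cytosolic, a limit of 1.5-fold 1 and 0, scaling by library size 7 mitochondrial and the GC correction 7 mitochondrial. Under OF, with 11 and 5, these were 3 and 1 in one fit, 7 cytosolic with the block, 0 and 0 at 1.5-fold and 8 mitochondrial with the GC correction. In TMD8 under R, with 0 and 0, DESeq2 called 1 mitochondrial gene, the block 2 cytosolic and 3 mitochondrial, the block with the GC correction 3 and 4, the fit without the libraries that stood apart 3 and 4, one fit of all 12 libraries 4 mitochondrial, and that fit with the block 6 and 6. Under OF the block called 1 and 3, the block with the GC correction 1 and 2, the fit without those libraries 3 and 3, one fit 1 and 2, and that fit with the block 2 and 6. For R against OF in TMD8 the fit of all 12 libraries with the block called 2 cytosolic and 1 mitochondrial, against 0 in all other fits. For comparisons within a line, the shares of all genes called by the fits of all 12 libraries are not given. Their member counts therefore cannot be compared with all genes. Between the lines under isotype, 16 cytosolic and 10 mitochondrial genes became 8 and 4 at 1.5-fold, and 6 mitochondrial without a filter on low counts. At 1.5-fold 28% of all genes were called higher in TMD8 and 28.1% lower. For the difference in response to R, DESeq2 and the block each called 2 cytosolic genes, and the fit without the libraries that stood apart 2 and 1. For OF, DESeq2, the block and the block with the GC correction each called 1 cytosolic gene, and the fit without those libraries 1 and 1. The block changed no other call of a member. Leaving out 1 library at a time gave 7 to 12 cytosolic and 2 to 4 mitochondrial calls for R in U2932, 4 to 13 and 2 to 6 for OF, 0 to 0 in the TMD8 comparisons with isotype and in R against OF, 9 to 16 and 6 to 10 between the lines, 0 to 1 and 0 to 1 for the difference in response to R, and 0 to 0 for OF. The shares of all genes called with a library left out are not given either, so those counts cannot be compared with all genes. The cause of these shifts was not tested. Of the values of single members under the alternatives, 5510 kept direction and side of the threshold, 186 lost and 136 gained a call, and none of those called changed sign. PARS2, the lowest member with counts, had at least 123 counts in every library, and 2 libraries per group limit every test.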
